A study of Mus musculus with 16 samples.

Results

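The acrosome and sperm-egg fusion genes are a set of 38 genes chosen for their products: proteins of the acrosome, factors that carry a sperm through the egg coat and into fusion, and the germ cell chaperones that fold them. The rule is a list of names and uses no measured value, and all 38 have a row among the 24062 gene rows of the count table. The samples were 16 preparations of motile sperm from male mice, 8 of animals fed a high-fat, high-calorie diet (HFD) and 8 of animals fed a control diet (CD). Feeding began in both groups when the mice were 3 weeks old and lasted 9 weeks. The study asked how obesity of a parent bears on the early embryo. No source used here gives strain or genotype, and each library was taken as 1 animal, since the series counts 8 males per diet.

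The acrosome is a secretory vesicle that the Golgi of the round spermatid lays over the nucleus. Its release at the egg frees hydrolytic enzymes and bares the membrane on which the fusion protein Izumo1 is carried. Most of its proteins are translated in spermatids from genes that are silent outside the testis, and mature sperm, which no longer transcribe, keep fragments of these messages.

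Libraries held 1882555 to 5153818 gene counts in HFD and 3172721 to 7783981 in CD. Values are CPM, gene counts relative to library size, scaled with trimmed mean of M-values (TMM) factors unless a share is given. All 20 genes of a late spermatid list (protamines, transition proteins, flagellar proteins; none of the 38) had counts in every library, yet an 18-gene list of the epididymal epithelium, the lining of the duct in which sperm are stored, summed higher in 14 of 16 libraries. HFD 4 and HFD 8 stood apart and were the exceptions: the late spermatid list summed to 18280 and 51720 CPM, while the range was 1923 to 12110 CPM in the other 14, and epididymal genes gave 14350 and 10340 CPM, with other libraries at 29680 to 83950. Reads outside annotated features made up 76.1% and 74.96% of these libraries, against 58.0% to 67.9% elsewhere. Leukocyte markers (13 and 15 of 15 with a count) summed to 1077 and 1421 CPM, against 229 to 1036, and stromal markers (14 and 14 of 14) to 1490 and 1233 CPM, against 352 to 1021. Of the other testis cells, spermatogonial markers had counts for 4 and 6 of 10 genes (Nanos3, Sohlh1 and Lin28a at 0 in both), Sertoli cell markers for 2 and 4 of 9 (Amh, Rhox5, Cldn11, Gata1 and Fshr at 0) and Leydig cell markers for 3 and 5 of 8 (Insl3, Lhcgr and Hsd17b3 at 0). Their sums in HFD 4 and HFD 8 were 61.9 and 58.2, 11.9 and 31.03, and 29.2 and 65.5 CPM, against 49.4 to 287, 22.4 to 69.97, and 45.7 to 129.5 elsewhere. In the other 14 libraries 5 to 7, 3 to 7 and 3 to 8 genes of these lists had counts, and Sohlh1, Lin28a, Amh and Fshr were at 0 in all 16. The part that these cells or the RNA quality play in the values below was not tested.

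Acrosome and fusion transcripts were scarce in most sperm libraries and plentiful in HFD 4 and HFD 8. The 38 genes took 0.855% of gene counts in HFD 4 and 0.462% in HFD 8. In the other 6 HFD libraries they took 0.0567% to 0.173%, and in the 8 CD libraries 0.0697% to 0.173%. One gene, Spink2, made up 4.23% to 52.1% of the 38 genes' counts in HFD and 4.66% to 67.97% in CD, and it followed a course of its own, so the sum of the other 37 is given here. Summed over these 37, HFD 4 held 9174 CPM, HFD 8 4688 CPM and the other HFD libraries 415 to 1355 CPM, against 411 to 1557 in CD. The median was 1037 CPM in HFD and 737 CPM in CD, and the 6 remaining HFD libraries lay within the CD range. HFD 7 and CD 4 were the poorest of their diets. In bulk RNA such as this, fewer cells with a transcript and less of it per cell cannot be told apart.

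Of the 36 genes that passed the filter on low counts, 32 had their highest and next highest CPM in HFD 4 and HFD 8, in either order. The same held for 21.8% of the 13149 genes tested. Of all 38, 29 were highest in HFD 4 and 6 in HFD 8; Spink2 was highest in CD 2, Cd46 in CD 4 and Gopc in HFD 6. The fold over the median of the other 14 libraries had a median of 11.6 in HFD 4 and 6.01 in HFD 8 across the 38 genes, against 0.832 and 0.919 across all genes tested. HFD 7 was the lowest library for 14 of the 38 and CD 4 for 7.

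**Figure D1:**
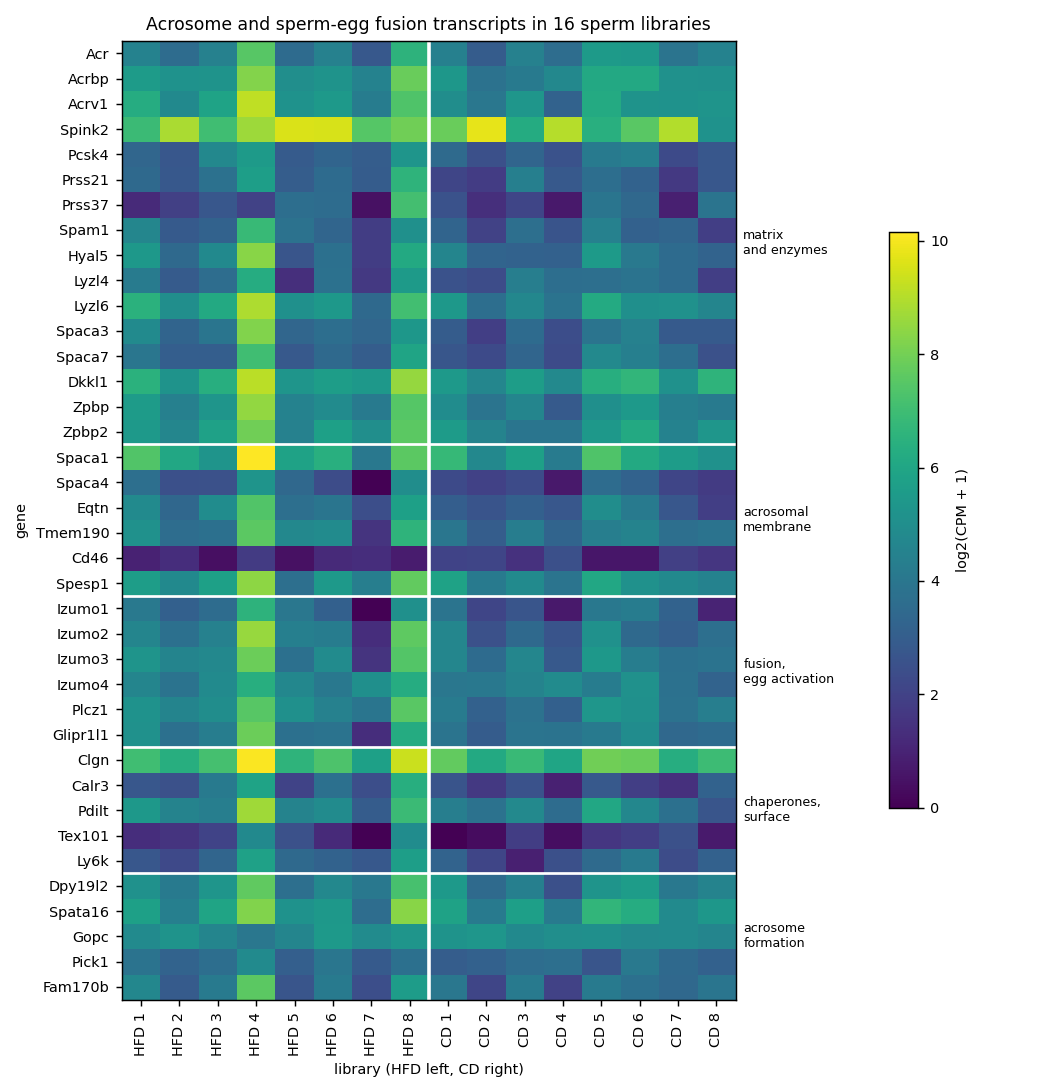
Levels of the 38 genes, as log2(CPM + 1), in 8 HFD libraries (left of the white line) and 8 CD libraries (right), grouped by role. HFD 4 and HFD 8 are bright across most rows; Spink2, Cd46, Gopc and Pick1 are exceptions, and Prss37 is bright in HFD 8 alone.

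The 37 genes other than Spink2 varied between libraries more closely with a 20-gene meiotic list than with the late spermatid list. This was noticed after the data were seen and is a description. The meiotic list was led by Mael (39.0% of its mean CPM), Syce2 and Ddx4, and 14 of the 20 passed the filter on low counts. Recombination genes were scarce in it, such as Dmc1 and Spo11 with means of 0.211 and 1.29 CPM. Divided by the meiotic list, the sum of the 37 genes gave 1.15 to 2.09 in HFD (median 1.56) and 1.07 to 1.79 in CD (median 1.48). Over all 16 libraries that ratio spanned 1.94-fold while the sum itself spanned 22.3-fold. Divided by the late spermatid list, the sum gave 0.0738 in HFD 5 to 0.502 in HFD 4, and 0.0589 in CD 8 to 0.278 in CD 7, a span of 8.52-fold. Without protamines and transition proteins in that list the span was 6.93-fold. Without HFD 4 and HFD 8 the spans were 1.81-fold for the meiotic and 5.96-fold for the late spermatid ratio, and 3.79-fold for the sum. All these sums share each library's depth and scaling, and HFD and CD overlapped in each ratio.

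**Figure D2:**
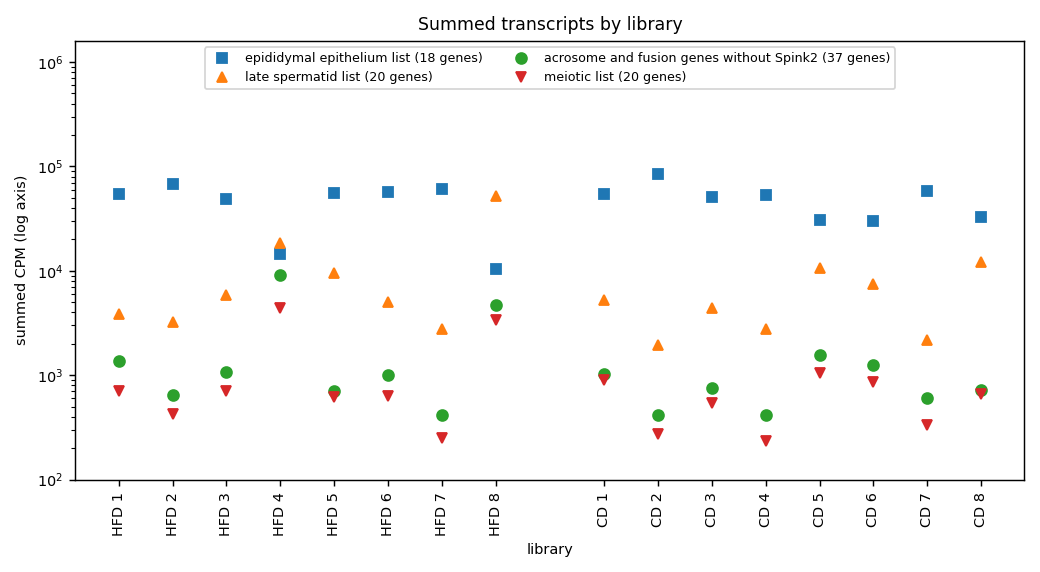
Summed CPM on a log axis in each library for the 37 genes without Spink2 and 3 marker lists, HFD left and CD right. The acrosome and fusion genes (circles) run just above the meiotic list (inverted triangles) in every library, while the late spermatid list (triangles) reaches 51720 CPM in HFD 8 and the epididymal list (squares) is lowest in HFD 4 and HFD 8.

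Acrosomal enzymes and their partners formed the largest role group, with 16 genes. Acr encodes acrosin, the serine protease stored as proacrosin, and stood at 5.91 to 183 CPM in HFD libraries (median 21.03) and 6.75 to 45.5 CPM in CD libraries (median 20.6). Acrbp, which binds proacrosin and packs it in the vesicle, stood at 21.4 to 304 CPM in HFD libraries (median 36.05) and 13.1 to 68.96 CPM in CD libraries (median 33.6). The diets overlapped in both genes, and each maximum was HFD 4. Acrv1, the acrosomal vesicle antigen SP-10, reached 580.3 CPM in HFD 4 and 164 CPM in HFD 8, with 18.1 to 580.3 CPM in HFD libraries (median 50.7) and 8.25 to 72.8 CPM in CD libraries (median 35.3). The hyaluronidases, which loosen the cumulus matrix around the egg, are Hyal5 and Spam1, both on chromosome 6. Hyal5 had 2.59 to 327 CPM in HFD libraries (median 19.9) and 7.95 to 44.95 CPM in CD libraries (median 9.77). Spam1 (PH-20) had 2.59 to 112 CPM in HFD libraries (median 11.1) and 2.71 to 20.9 CPM in CD libraries (median 8.32). In HFD 4 they stood at 327 and 112 CPM and in HFD 8 at 70.1 and 32.8 CPM.

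The lysozyme-like family members here are Lyzl6, Lyzl4 and Spaca3, whose products sit in the acrosome. Lyzl6 had 9.98 to 476 CPM in HFD libraries (median 56.4) and 11.6 to 72.5 CPM in CD libraries (median 28.6). Spaca3 had 8.68 to 298 CPM in HFD libraries (median 13) and 2.65 to 21 CPM in CD libraries (median 6.55), and its 298 CPM in HFD 4 was 32.1-fold over the median of the other 14 libraries, the largest such fold of the 38 genes in that library. Lyzl4, which overlaps 2 annotated genes, had 1.55 to 76.2 CPM in HFD libraries (median 12.1) and 2.71 to 18.98 CPM in CD libraries (median 11.1). Dkkl1, an acrosomal glycoprotein related to the Dickkopf proteins, had 36.2 to 545 CPM in HFD libraries (median 64.6) and 23.9 to 101 CPM in CD libraries (median 46.4). Spaca7, released when the acrosome opens, had 6.196 to 130.3 CPM in HFD libraries (median 8.63) and 3.84 to 26.3 CPM in CD libraries (median 7.22).

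Zpbp and Zpbp2 encode paralogous proteins of the acrosomal matrix that bind the egg coat. Zpbp had 17.4 to 364 CPM in HFD libraries (median 33.03) and 6.42 to 44.2 CPM in CD libraries (median 21.7). Its exons overlap those of Spata48 on the other strand, and reads in the shared stretch cannot be told apart. Zpbp2 had 20.9 to 243 CPM in HFD libraries (median 48.9) and 14.4 to 70.1 CPM in CD libraries (median 30.6). Of the protease genes besides Acr, Pcsk4, a proprotein convertase of germ cells, had 5.66 to 44.6 CPM in HFD libraries (median 8.87) and 3.88 to 19.6 CPM in CD libraries (median 7.26), and Prss21 (testisin), a protease anchored on the sperm surface, had 5.85 to 95.2 CPM in HFD libraries (median 10.3) and 2.22 to 19.6 CPM in CD libraries (median 5.93). Prss21 was 1 of 6 genes with more CPM in HFD 8 than in any other library.

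After Spink2, Prss37 differed most from the other genes of this group. It encodes a protease-like protein that mouse sperm need to display the surface protein Adam3. HFD 8 had 139 CPM of it and HFD 4 2.98 CPM. The other 6 HFD libraries held 0.3696 to 11.6 CPM, and CD libraries 0.611 to 14.3 CPM (median 4.14). HFD 4, the top library for 29 of the 38 genes, thus lay within the CD range for this one. HFD 8 held 28910 CPM of protamines and transition proteins together and HFD 4 3606 CPM, and the next highest Prss37 levels were those of HFD 5, CD 5 and CD 8 (11.6, 14.3 and 13.9 CPM), where that sum was 3938, 2921 and 4207 CPM.

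Spink2 had the highest level of the 38 per kilobase of exon, a CD median of 261 CPM per kilobase, and did not follow the rest. Its product is a Kazal-type inhibitor of acrosin-like proteases that protects the forming acrosome, and the Spink family is also known from the epididymal duct. It had 120.5 to 766 CPM in HFD libraries (median 325) and 34.8 to 878 CPM in CD libraries (median 206), with 405 CPM in HFD 4 and 246 CPM in HFD 8. The 6 libraries with the most Spink2 were CD 2, HFD 5, HFD 6, CD 4, CD 7 and HFD 2, at 459.5 to 878 CPM. In these 6 the epididymal gene Gpx5, a secreted glutathione peroxidase, stood at 996 to 7826 CPM. Among the remaining 10 libraries, Gpx5 reached 1871 CPM in HFD 8 and at most 254 CPM elsewhere, and Spink2 lay between 34.8 CPM in CD 8 and 405 CPM in HFD 4. The whole 18-gene epididymal list did not set these 6 libraries apart: HFD 7 held 60560 CPM of it and HFD 1 54010 CPM, where Spink2 had 178 and 120.5 CPM, and CD 4 held 53590 CPM, where Spink2 had 523 CPM. Gpx5 was chosen after its values were seen, and the part of epididymal RNA in the Spink2 level was not tested.

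**Figure D3:**
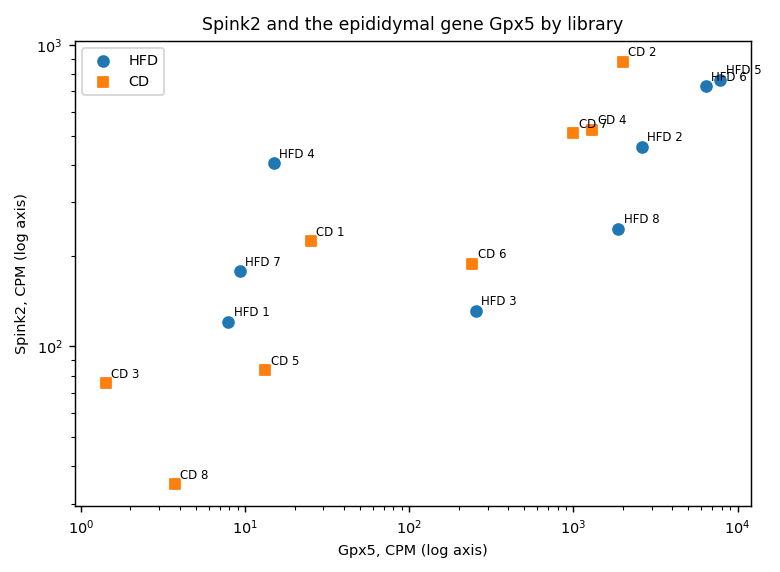
Spink2 against Gpx5, both in CPM on log axes, with each library named and HFD as circles and CD as squares. The 6 libraries with the most Spink2 all have at least 996 CPM of Gpx5, HFD 8 has 1871 CPM of Gpx5 with 246 CPM of Spink2, and HFD 4 has little Gpx5 with 405 CPM of Spink2. The summed epididymal list, not drawn, does not separate these 6 libraries.

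Genes of the acrosomal membranes were led by Spaca1, whose product lies on the inner acrosomal membrane and shapes the vesicle. Spaca1 had 15.5 to 1131 CPM in HFD libraries (median 74.96) and 17.7 to 164 CPM in CD libraries (median 50.2). HFD 4 alone held 1131 CPM, against 189 CPM in HFD 8, and HFD 1 with 165 and CD 5 with 164 CPM came close to HFD 8. Spesp1, a protein of the equatorial segment where fusion begins, had 12 to 339.8 CPM in HFD libraries (median 46.99) and 14.1 to 66.9 CPM in CD libraries (median 27.6). Eqtn (equatorin), of the same region, had 4.43 to 165 CPM in HFD libraries (median 21.02) and 2.71 to 30.4 CPM in CD libraries (median 6.505), and Tmem190 had 1.85 to 190.4 CPM in HFD libraries (median 27.1) and 6.88 to 22.4 CPM in CD libraries (median 14.1). Spaca4, a small surface protein that aids passage of the egg coat in mouse, had 0 to 36.9 CPM in HFD libraries (median 7.24) and 0.611 to 10.98 CPM in CD libraries (median 3.59). Its value of 0 in HFD 7 allows up to 1.11 CPM, the level of 3 counts, and such limits cover counting error only.

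Cd46 was close to undetected. The product is a complement regulator that rodents keep chiefly on the acrosome. Its 16 libraries held 108 counts in all, 0.342 to 2.38 CPM in HFD (median 1.13) and 0.511 to 4.58 CPM in CD (median 2.4), and it did not pass the filter. Its exons overlap 3 annotated genes, the microRNA genes Mir29b-2 and Mir29c among them.

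The 4 Izumo genes share a domain named after a Japanese marriage shrine, and Izumo1 is the one that binds the egg receptor Juno. Izumo1 had 0 to 93.4 CPM in HFD libraries (median 13.03) and 0.611 to 18.3 CPM in CD libraries (median 6.71), with 0 counts in HFD 7 (up to 1.11 CPM). Izumo2 had 1.48 to 382 CPM in HFD libraries (median 20.5) and 4.76 to 34.5 CPM in CD libraries (median 10.1), and Izumo3 had 1.85 to 234 CPM in HFD libraries (median 27) and 6.11 to 41.6 CPM in CD libraries (median 16.2). Izumo4 varied least, with 13.4 to 80.9 CPM in HFD libraries (median 26.6) and 8.45 to 34.1 CPM in CD libraries (median 17.1). HFD 4 was the top library for each of the 4 and HFD 8 the next, with 31.02-fold and 15.8-fold over the median of the other 14 for Izumo2 and 3.97-fold and 3.78-fold for Izumo4. Per kilobase of exon, median CPM was 28.3 in HFD and 14.01 in CD for Izumo2, 21.4 and 12.8 for Izumo3, 9.51 and 6.12 for Izumo4, and 4.35 and 2.24 for Izumo1. Neighbours in this order overlap: in CD, Izumo2 ran from 6.58 to 47.6, Izumo3 from 4.83 to 32.9, Izumo4 from 3.02 to 12.2 and Izumo1 from 0.204 to 6.11 CPM per kilobase. Izumo1 shares exon sequence positions with Rasip1.

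Plcz1 encodes the phospholipase that sperm deliver to set off calcium waves in the egg. It had 14.4 to 188 CPM in HFD libraries (median 31.7) and 7.64 to 38.8 CPM in CD libraries (median 15.4), and HFD 8 and HFD 4 were nearly level at 188 and 182 CPM. Its exons overlap those of Capza3, and reads in the shared stretch cannot be told apart. Glipr1l1, a sperm surface protein that takes part in egg binding, had 1.48 to 233 CPM in HFD libraries (median 16.1) and 6.75 to 29.4 CPM in CD libraries (median 13.8).

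Among the chaperones, Clgn (calmegin), the germ cell relative of calnexin, had the highest mean CPM of the 38 after Spink2. Clgn had 53.96 to 1080 CPM in HFD libraries (median 136) and 62.03 to 244 CPM in CD libraries (median 120.3), with 1080 CPM in HFD 4 and 649 CPM in HFD 8. Pdilt, a disulfide isomerase-like partner of Clgn, had 6.65 to 414 CPM in HFD libraries (median 25.6) and 5.41 to 67.4 CPM in CD libraries (median 16.3), and its exons overlap Acsm5. Calr3 (calsperin), the germ cell relative of calreticulin, had 3.098 to 80.2 CPM in HFD libraries (median 9.08) and 0.917 to 8.12 CPM in CD libraries (median 3.77). All 3 are needed in mouse for Adam3 to reach the sperm surface, and all 3 had their 2 highest values in HFD 4 and HFD 8. Ly6k and Tex101, linked surface proteins of germ cells that also act on Adam3, were low, with 3.77 to 54.8 CPM in HFD libraries (median 8.45) and 0.8498 to 16.6 CPM in CD libraries (median 6.18) for Ly6k. Tex101 had 0 to 29.3 CPM in HFD libraries (median 2.48) and 0 to 4.71 CPM in CD libraries (median 1.36), with 222 counts in all and 0 counts in HFD 7 and CD 1, and did not pass the filter.

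Most housekeeping chaperone and folding genes had low values in the same libraries. From a list of 12 endoplasmic reticulum genes, Cmtm2a and Cmtm2b were left out here. They are no chaperones, and both were highest in HFD 4 and HFD 8. Of the remaining 10, 8 were below the other 14 libraries in both HFD 4 and HFD 8. A share over all genes was not taken, so whether this count is particular to these genes was not tested. Across all genes tested, the fold over the median of the other 14 libraries had a median of 0.832 in HFD 4 and 0.919 in HFD 8. Canx (calnexin) stood at 564 CPM for HFD 4 and 324 for HFD 8, both below the 832 to 1528 CPM of the other 14 libraries. Calr (calreticulin) had 287 and 264 CPM, against 704 to 1287, and P4hb, a disulfide isomerase, 101 and 105 CPM, against 339 to 596. Pdia3, a disulfide isomerase, was below that range in HFD 8 alone, with 389 CPM for HFD 4 and 335 for HFD 8, against 384 to 907. Hsp90b1, an HSP90 chaperone, was within it in both, at 1240 and 1070 CPM, against 1040 to 3693. HFD 4 and HFD 8 are also the libraries lowest in the epididymal list.

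Of the 5 genes that act in building the acrosome, 3 followed the common pattern. Dpy19l2, which anchors the acrosome to the nucleus and whose loss gives round-headed sperm, had 12 to 200 CPM in HFD libraries (median 29.6) and 4.58 to 47.5 CPM in CD libraries (median 21.1). Spata16, whose product sits in the Golgi and the early acrosome, had 11.5 to 324 CPM in HFD libraries (median 47.3) and 16.8 to 102 CPM in CD libraries (median 45.9), and Fam170b had 4.43 to 191 CPM in HFD libraries (median 17.04) and 3.06 to 16.9 CPM in CD libraries (median 13.5). Gopc and Pick1, Golgi trafficking proteins made in many tissues, did not share it. Gopc had 15.5 to 43.7 CPM in HFD libraries (median 28.4) and 23.3 to 38.8 CPM in CD libraries (median 29.3), and HFD 4, at 15.5 CPM, was its lowest library. Pick1 had 6.28 to 27.97 CPM in HFD libraries (median 12.1) and 5.36 to 16.1 CPM in CD libraries (median 8.96), with 27.97 CPM in HFD 4 and 12.6 CPM in HFD 8.

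The 2 richest libraries were not alike in makeup. For 31 of the 38 genes CPM were higher in HFD 4 than in HFD 8, although the late spermatid list was higher in HFD 8. The ratio of HFD 8 to HFD 4 had a median of 0.598 over the 38 genes and 0.976 over all genes tested. Exact 95% counting intervals of the ratio lay below 1 for 26 genes, above 1 for 4 and held 1 for 8. The lowest ratios were those of Spaca3, at 0.136 (95% interval 0.1101 to 0.167), Spaca1, at 0.167 (95% interval 0.152 to 0.184), and Hyal5, at 0.214 (95% interval 0.182 to 0.253). Ratios above 1 beyond counting error were those of Prss37, at 46.8 (95% interval 19.9 to 145), Gopc, at 2.48 (95% interval 1.605 to 3.96), Prss21, at 1.88 (95% interval 1.47 to 2.43), and Calr3, at 1.39 (95% interval 1.09 to 1.78). Each is 1 library against 1 library of the same diet, with no replicate, and the intervals cover counting error only.

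**Figure D4:**
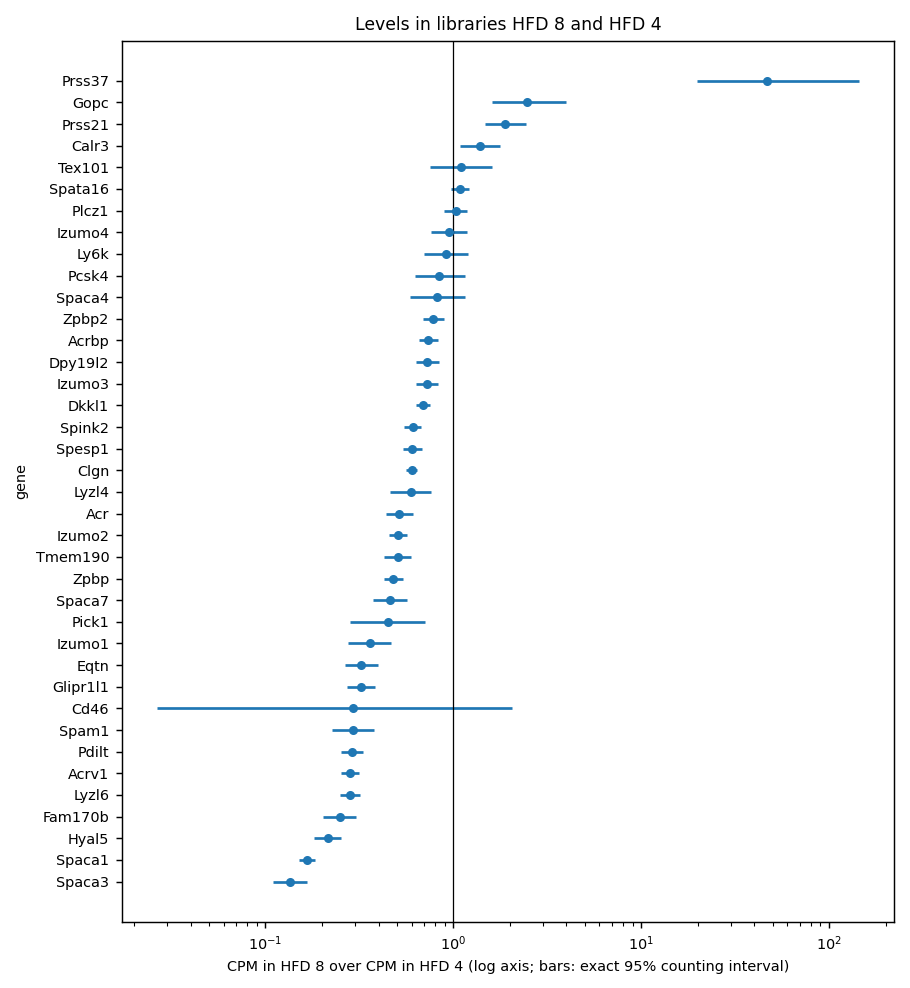
Ratio of CPM in HFD 8 to CPM in HFD 4 for each of the 38 genes on a log axis, with exact 95% counting intervals. Most genes lie left of 1, and Prss37 lies far right at 46.8.

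Some members varied less than others in their share of the set from library to library, though none kept a constant share. The log2 ratio of a gene to the sum of the other members (Spink2 left out, with 0.1 CPM added) had an SD over 16 libraries of 0.308 for Clgn, 0.368 for Zpbp, 0.389 for Acr, 0.409 for Acrbp and 0.414 for Spesp1, the 5 lowest. It was highest for Spink2 (1.92), Cd46 (1.83), Prss37 (1.76), Tex101 (1.69) and Izumo1 (1.64), of which Cd46, Tex101, Prss37 and Izumo1 each had a library with at most 1 count. Clgn came to 13.4% of that sum in HFD 4 and 16.1% in HFD 8, with a median of 19.4% in CD. Zpbp came to 4.13% in HFD 4 and 3.87% in HFD 8, with a median of 3.11% in CD. Spaca1 varied more, with 14.1% in HFD 4, 4.21% in HFD 8 and a median of 7.13% in CD.

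No acrosome or fusion gene passed the diet comparison. For 33 of the 38, HFD 4 and HFD 8 held the 2 highest values, so leaving them out had to lower the HFD mean CPM. A share over all genes was not taken. Without HFD 4 and HFD 8 the HFD mean was lower for 36 of the 38. Of the exceptions, Spink2 averaged 379 CPM in HFD and 397 CPM in HFD without them, against 314 CPM in CD, and the other was Gopc. Calr3 averaged 7.86 CPM in HFD without them, against 3.97 CPM in CD. In edgeR's quasi-likelihood test 0 of the 36 genes tested had an adjusted p under 0.05, where 0% of the 13149 genes tested did. Log2 fold changes, HFD over CD, were positive for 35 of 36 with a median of 1.53, against 49.6% of all genes tested and a median of -0.0042. An unadjusted p under 0.05 was given to 24 of the 36, all higher in HFD, against 10.2% of all genes in that direction and 1.1% in the other. Without HFD 4 alone that count was 6, without HFD 8 alone 15, and without both it was 0, where 2.17% of 13448 genes had one. DESeq2 likewise gave 0 members an adjusted p under 0.05, where 0.0049% of 20393 genes had one. Without both libraries, 27 of 36 log2 fold changes were positive (49.2% of all genes), with a median of 0.16. The HFD and CD values overlapped for all 38 genes, as they did for every gene tested but 1 (0.00761%).

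**Figure D5:**
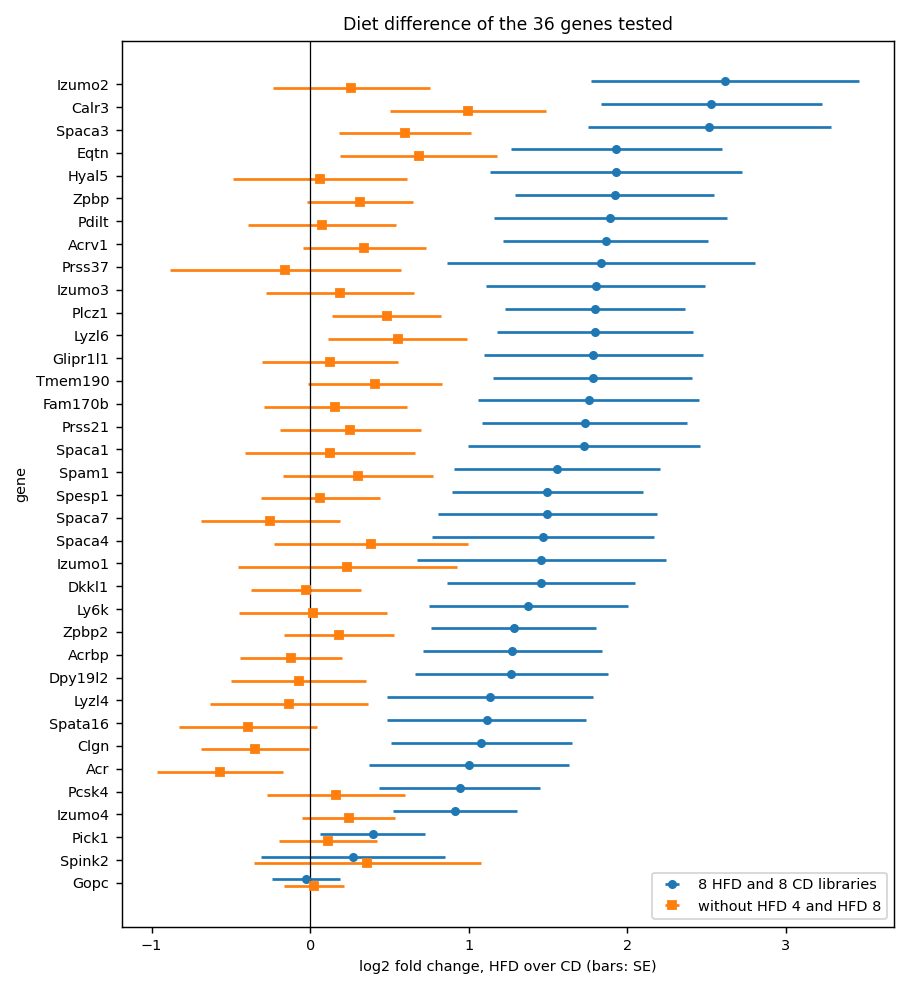
Log2 fold change, HFD over CD, of the 36 genes tested with its SE, from all 16 libraries (circles) and without HFD 4 and HFD 8 (squares). The circles have a median of 1.53 and the squares one of 0.16.

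Calr3 had the smallest unadjusted p of the set, with a log2 fold change of 2.53 ± 0.70 (SE) and an adjusted p of 0.434 from edgeR. Its value was 0.996 without HFD 4 and HFD 8. By the size of p the next were Spaca3 with 2.52 ± 0.76, Plcz1 with 1.80 ± 0.57, Izumo2 with 2.62 ± 0.85, Zpbp with 1.92 ± 0.63 and Eqtn with 1.93 ± 0.66, all at the same edgeR adjusted p of 0.434. DESeq2 gave lower log2 fold changes of 0.888 for Spaca3, 1.51 for Izumo2 and 1.02 for Zpbp. In edgeR without both libraries the 5 genes from Spaca3 to Eqtn had 0.60, 0.48, 0.26, 0.32 and 0.69. The 4 genes with the highest mean CPM gave 0.27 ± 0.58 for Spink2 (edgeR adjusted p = 0.883), 1.08 ± 0.57 for Clgn (0.487), 1.73 ± 0.73 for Spaca1 (0.434) and 1.46 ± 0.59 for Dkkl1 (0.434), and without both libraries 0.36, -0.35, 0.12 and -0.026. Clgn and Dkkl1 thus changed sign.

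By role, all 16 enzyme and matrix genes lay above 0 in log2 fold change (median 1.53, or 0.17 when HFD 4 and HFD 8 were left out). The 5 tested membrane genes had a median of 1.73 (0.38 without both), the 6 fusion and egg activation genes 1.79 (0.24), the 4 tested chaperone and surface genes 1.64 (0.046), and the 5 genes of acrosome formation 1.11 (0.027). Gopc was the sole gene of the 36 with a negative value, -0.027 ± 0.21 (SE), a sign that turned with several settings.

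Other genes of the same pathway were taken from lists that hold none of the 38. Of 16 further genes of acrosome formation, 0 passed in either direction and 15 lay above 0 in log2 fold change (median 0.70, and -0.018 without HFD 4 and HFD 8). The 3 with the highest mean CPM were Ccdc136, with 2104 and 1796 CPM in HFD 4 and HFD 8 and at most 594 elsewhere, Tmf1, with 556 and 308 and at most 288, and Hook1, with 389 and 637 and at most 200.3. Of 18 sperm surface and egg coat genes, 0 passed and 11 were positive (median 0.77, and 0.012 without both). Crisp2, a sperm protein of testis, had 3608 and 4197 CPM and at most 1198 elsewhere. Ace had 101 CPM in HFD 4, below the 208 to 1234 CPM elsewhere, and 225 CPM in HFD 8, within that range. Counts by gene do not separate transcript forms of Ace.

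Of 8 tested genes known or named for sperm-egg fusion, 0 passed and 7 were positive (median 1.05, and 0.35 without both). The one with the highest mean CPM was Cd81, a tetraspanin of many cells that acts on the egg side, with 52.97 and 59.6 CPM in HFD 4 and HFD 8, while elsewhere it had 198 to 882. 1700034O15Rik followed with 380.3 and 157 CPM and at most 67.2 elsewhere, and Dcst1, a sperm membrane protein needed for fertilization in mouse, with 167 and 46.4 and at most 14.3. Of 12 endoplasmic reticulum genes, 0 passed, 3 were positive and 9 negative (median -0.20, and 0.038 without both). The genes of highest mean CPM in that list, Hsp90b1, Hspa5 and Canx, are housekeeping chaperones, and Cmtm2a and Cmtm2b, germ cell genes of that list that are no chaperones, had log2 fold changes of 1.58 and 1.54, and of 0.057 and 0.053 without HFD 4 and HFD 8.

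Most of these transcripts were high in the same libraries, and promoters are shown for members whose sequence holds the core of the cAMP response element, the site that CREM, the activator of many spermatid genes, is known to bind. RefSeq windows on GRCm38.p6 (mm10), 250 bases before to 50 after the start, were found for 31 of the 38 genes. The core TGACG, on either strand and counted once where it is also part of the longer motifs, was in a window of 12 of 31 genes (38.7%) and of 23.0% of all 27025 genes with a window. The full palindrome TGACGTCA was in 1 of 31 (3.23%), Izumo1, against 2.03% of all. The X-box half-site GTTGCC, which RFX factors bind, was in 7 of 31 (22.6%), against 14.1% of all, and AACNGTT, bound by MYB factors, in 2 of 31 (6.45%), against 5.01%. TGACG was in 3 of 17 late spermatid list genes with a window (17.6%), a lower share than among all genes, and in 0 of 14 epididymal genes. Among the members it was also in windows of Cd46, Gopc and Pick1, whose levels lacked the common pattern. A match describes letters in the window and is not a bound site. Capitals in the lines below mark TGACG or its reverse complement, read 5′ to 3′ along the gene: Izumo1 (chr7:45621561-45621860, plus strand) holds the full palindrome, Spaca1 (chr4:34050016-34050315, minus strand) has TGACG in 2 places, Spaca3 (chr11:80858113-80858412, plus strand) is the gene with the largest fold in HFD 4, and Acrbp (chr6:125049677-125049976, plus strand) has it closest upstream of the start. For Spaca1 and Spaca3, 1 of 2 annotated starts is shown.
Izumo1: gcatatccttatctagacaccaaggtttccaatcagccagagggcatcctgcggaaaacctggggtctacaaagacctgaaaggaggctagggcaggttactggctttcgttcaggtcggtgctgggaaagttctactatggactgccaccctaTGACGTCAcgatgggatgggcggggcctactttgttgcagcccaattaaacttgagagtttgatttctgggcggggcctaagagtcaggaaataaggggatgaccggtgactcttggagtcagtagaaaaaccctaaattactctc
Spaca1: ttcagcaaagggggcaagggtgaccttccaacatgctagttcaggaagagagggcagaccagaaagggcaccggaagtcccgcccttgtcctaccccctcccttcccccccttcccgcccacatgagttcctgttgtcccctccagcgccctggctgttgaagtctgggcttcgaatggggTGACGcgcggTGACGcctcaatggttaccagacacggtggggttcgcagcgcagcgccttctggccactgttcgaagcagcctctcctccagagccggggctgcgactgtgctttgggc
Spaca3: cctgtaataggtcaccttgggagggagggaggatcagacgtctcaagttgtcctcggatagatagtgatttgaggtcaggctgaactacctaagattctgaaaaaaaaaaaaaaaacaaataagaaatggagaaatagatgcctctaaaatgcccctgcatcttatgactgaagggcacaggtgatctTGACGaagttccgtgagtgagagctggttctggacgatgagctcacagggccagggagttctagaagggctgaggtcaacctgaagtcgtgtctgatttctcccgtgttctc
Acrbp: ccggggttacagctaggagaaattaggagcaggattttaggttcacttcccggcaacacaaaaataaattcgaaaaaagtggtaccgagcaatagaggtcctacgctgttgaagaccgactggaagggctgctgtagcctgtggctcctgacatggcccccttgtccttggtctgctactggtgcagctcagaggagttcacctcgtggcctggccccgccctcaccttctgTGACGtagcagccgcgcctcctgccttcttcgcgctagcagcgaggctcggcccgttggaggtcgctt
The first base of the motif lies 96 bases before the start in Izumo1, 69 and 59 in Spaca1, 62 in Spaca3 and 18 in Acrbp. Izumo1 and Acrbp stood at 11.8-fold and 8.83-fold over the other 14 libraries in HFD 4 and 4.24-fold and 6.49-fold in HFD 8. Members without TGACG in their windows, such as Dkkl1 and Izumo2, showed folds of 11.8 and 31.02 in HFD 4.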

How the data were processed

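Motile sperm of 16 males were lysed with sonication and their RNA extracted with the miRNeasy kit, per the labels' protocols. From 2 ng of RNA, double-stranded cDNA was made and amplified with the Ovation RNA-Seq V2 kit, and 250 ng of cDNA went into each library. Deposited values are unnormalised read counts by gene symbol, 1 column per library. The build mm10 and the tools STAR, DESeq2 1.0.19 and HTSeq 1.0.0 are listed without roles, per the submitters' processing notes. Neither annotation nor strand setting is given in any source used here. In GENCODE M21, 14 of the 38 genes overlap another, 10 of them in exons, and reads in a shared stretch cannot be told apart. The count table keeps ambiguous reads in a row of their own, 0.0474% to 0.0907% of reads per library. The 5 summary rows were left out of sizes and tests: 8.02% to 20.1% of reads were assigned to genes. Depth limits a gene's precision, and no molecular identifiers are named.

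Diets were compared over all 24062 rows with edgeR 4.0.16 in R 4.3.3 (quasi-likelihood F-test, robust, TMM factors, default filter by diet leaving 13149 genes, diet as sole term, two-sided, Benjamini-Hochberg over all genes tested, threshold 0.05). SE is the log2 fold change over the root of F. CPM are deposited counts over the filtered total times the TMM factor. Levels per kilobase use merged GENCODE M21 exons on GRCm38. The step was tested on simulated data. The 56 pairs of libraries of one diet differed by chi-square of 12.7 to 172 per degree of freedom over genes, so none was counted as a copy. The 38 genes, the marker and pathway lists, the naming of all members, and the settings were chosen with earlier results of these data known. Full statistics were given by rule to the 6 tested members with the smallest unadjusted p and the 4 of highest mean CPM, and 3 genes were named per pathway list by mean CPM (1 of them is not reported here); Calr, P4hb, Pdia3, Cmtm2a, Cmtm2b, Gpx5 and the comparison with the meiotic list were chosen once their values had been seen. Alternatives were DESeq2 1.42.0, limma-voom (limma 3.58.1) with quality weights, edgeR without robust estimation, other scalings, filters, Rn45s left out, the title number as a block, the log2 total as covariate, and libraries left out. P-values measure the spread between these libraries.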

Additional observations from a re-analysis of the deposited data

Results flagged for a closer look

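Spaca3 in HFD 4 stood far from the other HFD libraries: on the log2(CPM + 1) scale the gap between its 298 CPM there and the 40.4 CPM of HFD 8, the next highest, was 0.576 of the whole range of the 8 HFD libraries, past Dixon's 95% limit for 8 samples. It was the 1 case among 80 groups examined (38 genes and 2 sums, in each diet), and chance flags about 1 group in 20.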

How the results depend on the processing

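The count of 0 members past the threshold was the same in every alternative run, and over all genes DESeq2 called 1 and every other alternative 0. Unadjusted p under 0.05 was given to 1482 genes and 24 members, but to 2258 genes with DESeq2, 500 genes and 4 members with limma-voom, 2518 genes with no filter, 314 genes and 3 members with the replicate block, 286 genes and 3 members with the log2 total as covariate, and 292 genes and 0 members without HFD 4 and HFD 8. Leaving out 1 library gave 516 (without HFD 4) to 2020 genes and 6 (without HFD 4) to 31 members, with 689 genes and 15 members without HFD 8. Whether the title numbers pair the libraries cannot be told from these values. Of 8 same-numbered pairs, 4 correlated over 0.1 (-0.395 to 0.605), and 2 of 8 HFD libraries matched their own number best. The members' median log2 fold change of 1.53 was 0.16 without HFD 4 and HFD 8 and 0.75 without HFD 4; it was 0.42 with limma-voom and 0.75 with the block. The log2 difference in the members' summed CPM, 0.73, went to 0.10 without both libraries and 0.39 without HFD 4, and was 0.84 without Spink2. Single libraries had a spread of 0.95, which is not the error of a difference between diet means, and this difference was not tested. The log2 difference in the ratio to the late spermatid list, 0.08, was -0.19 without CD 8 to 0.30 without CD 2, and 0.03 with the meiotic list in its place.

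Without HFD 4 and HFD 8 the sign turned for Acr (-0.57), Acrbp (-0.12), Prss37 (-0.16), Lyzl4 (-0.13), Spaca7 (-0.25), Dkkl1 (-0.026), Clgn (-0.35), Dpy19l2 (-0.072), Spata16 (-0.39) and Gopc (0.027). With limma-voom it turned for Acr (-0.18), Clgn (-0.040), Spata16 (-0.13) and Gopc (0.084), and with the total as covariate for Gopc (0.10). With DESeq2 it turned for Prss37 (-0.24) alone. There, 8 of 36 members' fold changes moved by over 1.5 times (Acr, Prss21, Prss37, Spaca3, Spaca7, Zpbp, Izumo2 and Pdilt, all lower). DESeq2 ran at its defaults, which replace counts flagged as outliers in groups of 8 libraries. Which counts were replaced was not recorded. With 1 library left out, Prss37 ranged from -0.25 without HFD 8 to 2.18, and Gopc from -0.13 without HFD 6 to 0.082 without HFD 4. The cause was not tested.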
